A study of Mus musculus with 3 samples.

Results

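The genes described here are 9 genes by which Kupffer cells, the resident macrophages of the liver, are commonly recognised: Clec4f, Vsig4, Timd4, Marco, Cd163, Fcna, C6, Folr2 and Spic. They were chosen by name as known Kupffer cell genes, with earlier results of these data known, and no measured value enters the rule. All 9 were among the 32285 genes of the deposited matrices. Nuclei came from frozen livers of male C57BL/6 J mice, with 1 library per mouse and 3 libraries in all. The ND library came from 1 mouse on a normal diet, whose liver was labelled as normal. The libraries STZ-HFHC 1 and STZ-HFHC 2 came from 2 mice labelled with fibrosis related to metabolic dysfunction-associated steatohepatitis (MASH). Each of these had received 0.2 mg of streptozocin, a toxin of insulin-producing cells, at 3 days of age and was fed a high-fat, high-cholesterol diet from 4 weeks of age. Diet and streptozocin differed together between the groups, so they cannot be told apart, and no mouse with streptozocin on a normal diet was sequenced. The sample codes of the ND library and the STZ-HFHC libraries also begin differently, so any processing batch cannot be told apart from the condition. The age of the mice at collection of these livers is not given in the sources used here.

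Kupffer cells line the sinusoids of the liver and take up particles, microbes, dying cells and aged red cells from portal blood. Several of the 9 genes encode the receptors for this uptake, others encode secreted proteins of innate immunity, and Spic encodes a transcription factor of macrophages that handle iron. When Kupffer cells are lost in steatohepatitis, monocytes enter the liver and can take on parts of the same programme, and Timd4 and Clec4f are commonly read as late or incomplete in such cells.

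The unit of all values was the unique molecular identifier (UMI), a tag that counts 1 captured RNA molecule. After limits on genes and mitochondrial counts, ND, STZ-HFHC 1 and STZ-HFHC 2 were left with 8494, 8921 and 10921 nuclei, at median depths of 4068, 3015 and 4027 UMIs. Pairs of libraries shared 29 to 32 barcodes, at most 0.322% of the smaller library. Nuclei were clustered without the 9 genes, and clusters were named from 12 lists of markers, among them 18 macrophage markers, so neither the clusters nor their names used the genes described here. In the same order, 245, 1386 and 941 nuclei were macrophage-like, or 2.88%, 15.5% and 8.62%. They came from separate clusters: cluster 4, with 15 of the 18 macrophage markers raised, held the 1386 nuclei of the first STZ-HFHC mouse and 939 of the 941 of the second, and cluster 20 held 228 of the 245 ND nuclei, with 8 macrophage markers and 3 of 10 hepatocyte markers raised. Against all other nuclei, the leading genes of cluster 20 included Il1b, Clec4f, Cd163 and Timd4. When the class was clustered again, the ND nuclei were led by hepatocyte genes against the other macrophage-like nuclei, as given with the subclusters. The summed level of the 18 macrophage markers in these nuclei was 1355 counts in every 1000000 UMIs (CPM) in ND against 4709 and 3098 CPM in the STZ-HFHC mice, with UMIs of 17 of the 18 in each library. The summed level of 10 hepatocyte markers was 17832, 8982 and 12942 CPM, or 87.9%, 58.3% and 77.5% of that in hepatocyte-like nuclei, with UMIs of all 10 in each library. The part of these differences in the results below was not tested.

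The genes lie on 8 chromosomes in the GENCODE M21 annotation (GRCm38). Clec4f (ENSMUSG00000014542) spans chr6:83644542-83656187 on the minus strand and Cd163 lies on the plus strand of the same chromosome at chr6:124304656-124330527. Vsig4 spans chrX:96247203-96293438 on the minus strand, Timd4 chr11:46810800-46844332 on the plus strand and Marco chr1:120474538-120505024 on the minus strand. Fcna spans chr2:25624666-25628030 on the minus strand, C6 chr15:4727175-4814967 on the plus strand, Folr2 chr7:101839988-101857194 on the minus strand and Spic chr10:88674772-88685015 on the minus strand. They range from 3365 bp (Fcna) to 87793 bp (C6). Fcna is covered over its whole length by the antisense gene Fcnaos, and Folr2 shares 2784 bp with the antisense gene Gm10602. Whether counting used strand is not given in the sources used here, so reads of these pairs may not be told apart. In macrophage-like nuclei, Fcnaos had 1, 4 and 0 UMIs and Gm10602 had 6, 7 and 5, in the order ND, STZ-HFHC 1 and STZ-HFHC 2, which is the order used throughout.

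The 250 bases before the RefSeq start site are shown for the 3 genes on which the results below turn. These are Clec4f and Vsig4, whose proportion to each other differed between ND and STZ-HFHC, and Fcna, which was highest outside the macrophage-like nuclei. Sequences are from RefSeq (GRCm38.p6), read 5′ to 3′ on the gene's strand, and capitals mark GAGGAA, a core of sites of PU.1, the Ets factor of macrophages to which Spic is related. They lie at chr6:83656117-83656366 (Clec4f), chrX:96293439-96293688 (Vsig4) and chr2:25627975-25628224 (Fcna), each on the minus strand. The RefSeq starts of Clec4f and Fcna lie inside the GENCODE spans given above, so parts of their stretches do too.
Clec4f: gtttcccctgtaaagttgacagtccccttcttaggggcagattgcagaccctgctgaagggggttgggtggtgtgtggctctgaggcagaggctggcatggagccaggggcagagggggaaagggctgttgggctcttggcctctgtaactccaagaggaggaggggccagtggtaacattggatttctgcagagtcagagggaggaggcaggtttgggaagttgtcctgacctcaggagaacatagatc
Vsig4: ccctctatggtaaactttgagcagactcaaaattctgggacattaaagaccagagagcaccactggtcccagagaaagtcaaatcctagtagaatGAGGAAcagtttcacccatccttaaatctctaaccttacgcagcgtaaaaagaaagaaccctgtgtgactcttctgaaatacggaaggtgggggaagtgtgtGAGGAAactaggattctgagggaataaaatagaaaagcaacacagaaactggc
Fcna: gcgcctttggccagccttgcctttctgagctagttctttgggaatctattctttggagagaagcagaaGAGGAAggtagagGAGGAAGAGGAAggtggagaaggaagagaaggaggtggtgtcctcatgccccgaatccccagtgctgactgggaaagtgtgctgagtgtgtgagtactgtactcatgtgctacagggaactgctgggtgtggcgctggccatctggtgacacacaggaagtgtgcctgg
GAGGAA or its reverse complement TTCCTC was found in the promoters of 3 of the 9 genes, over a window from 250 bases before to 50 bases after the start. In the same window, 9289 of 32851 RefSeq promoters held it (28.3%). Vsig4 had 2 matches, at -155 and -53 from the start, Marco had 1 at -146 and Fcna had 4, at -182, -169, -163 and 41, of which the last lies outside the stretch shown. No match was found for Clec4f or for the other 5 genes in this window. For Spic the whole window, chr10:88682974-88683273, lies inside its GENCODE span. Some of the letters of neighbouring matches in Fcna adjoin, and no binding was measured here.

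The levels of the 9 genes were first compared between classes of nuclei within each library. Of the 9 named classes, the macrophage-like class had the highest level in all 3 libraries for 8 of the 9 genes, and Fcna was the exception. The share of all genes that were highest in this class was not determined, and the count was lower with thinning before clustering. Levels were given as UMIs summed over the nuclei of a class, in CPM, with exact Poisson 95% intervals that cover counting error only. Among receptors, Clec4f, a C-type lectin, stood at 338.0 CPM (302–377), 190.2 (177–204) and 182 (167–198) in macrophage-like nuclei. In hepatocyte-like nuclei its level was 16.8, 11.7 and 12.7 CPM, so that the macrophage-like level was 20.1 (17.3–23.4), 16.2 (14.2–18.5) and 14.4 (12.7–16.4) times as high. The separation from the next named class was smaller, at 4.83 times over endothelial-like nuclei in ND, 3.94 times over cholangiocyte-like nuclei in STZ-HFHC 1 and 2.13 times over T or NK cell-like nuclei in STZ-HFHC 2.

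Vsig4, the complement receptor CRIg, was at 69.0 CPM (53.5–87.7), 200.4 (186–215) and 158 (144–173) in macrophage-like nuclei and at 4.72, 7.81 and 10.1 CPM in hepatocyte-like nuclei. Timd4, a receptor for phosphatidylserine on dying cells, was at 94.8 CPM (76.4–116), 79.0 (70.3–88.4) and 62.5 (53.8–72.3) against 5.20, 3.12 and 4.69 CPM in hepatocyte-like nuclei. Cd163, the receptor for haptoglobin and haemoglobin complexes, was at 52.6 CPM (39.1–69.1), 18.6 (14.5–23.4) and 24.8 (19.5–31.2) against 2.93, 0.632 and 3.03 CPM. All 3 receptors were therefore at least 8.19 times as high in macrophage-like as in hepatocyte-like nuclei of the same library, the lowest ratio being that of Cd163 in STZ-HFHC 2.

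Marco, a collagenous scavenger receptor, was at 8.24 CPM (3.56–16.2), 26.7 (21.8–32.4) and 17.3 (12.9–22.8). The ND value rested on 8 UMIs in 2 of the 245 nuclei. Folr2, the beta folate receptor of macrophages, was at 5.15 CPM (1.67–12.02), 17.3 (13.4–22.0) and 8.16 (5.23–12.1), with 5 UMIs in ND. In STZ-HFHC 2 the next class for Folr2, B cell-like, was close at 7.31 CPM (1.99–18.7), from 4 UMIs. Spic, the transcription factor, was at 20.6 CPM (12.6–31.8), 26.9 (22.0–32.7) and 21.1 (16.2–27.0), with overlapping intervals in the 3 libraries. The named class next to the macrophage-like in the STZ-HFHC mice was monocyte-like for Spic, at 15.7 and 12.7 CPM. It was so for Marco in STZ-HFHC 1, at 13.4 CPM. The monocyte-like class, cluster 10, also had 10 of 18 macrophage markers raised. In ND, 19.5 CPM of Spic in mesothelial-like nuclei came from 2 UMIs.

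The secreted proteins were spread more widely. C6, a component of the membrane attack complex that hepatocytes also make, was at 197 CPM (169.9–227), 118 (107–129) and 135 (122–149) in macrophage-like nuclei and at 138 CPM (133–143), 46.3 (43.8–49.0) and 53.2 (50.9–55.7) in hepatocyte-like nuclei. Hepatocyte-like nuclei held 51.8%, 50.5% and 50.7% of all C6 UMIs of the libraries, against 3.13%, 18.2% and 10.6% in macrophage-like nuclei. For Clec4f, the macrophage-like class held 328 of 1790, 727 of 1833 and 536 of 2275 UMIs, so most lay outside it. For Vsig4 it held 67 of 424, 766 of 1762 and 466 of 1695. In ND, endothelial-like nuclei held 503 and hepatocyte-like nuclei 384 Clec4f UMIs. The highest C6 level of any cluster of at least 20 nuclei was 326 CPM (305–348) in 644 ND nuclei of cluster 16, a cluster left unnamed for too few markers, among whose leading genes were Glul and Lgr5, genes of hepatocytes around the central vein.

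Fcna, which encodes ficolin-A, a lectin that starts the lectin pathway of complement, was at 4.12 CPM (1.12–10.6), 9.94 (7.03–13.6) and 6.80 (4.15–10.5) in macrophage-like nuclei. Its level in stellate or fibroblast-like nuclei was 16.9 CPM (14.0–20.3), 12.6 (8.17–18.6) and 8.72 (6.07–12.1), higher in each library, although the intervals of the 2 classes overlapped in both STZ-HFHC mice. These nuclei held 56.1%, 22.5% and 28.9% of the Fcna UMIs of the libraries. Within this class, 56 of the 119 ND UMIs fell in only 142 nuclei of cluster 5, at 162 CPM (123–211). Clusters 5 and 11 of this class held different libraries, with 1046 of the 1188 ND nuclei in cluster 11. The antisense gene Fcnaos had 18, 4 and 9 UMIs in these nuclei.

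**Figure D1:**
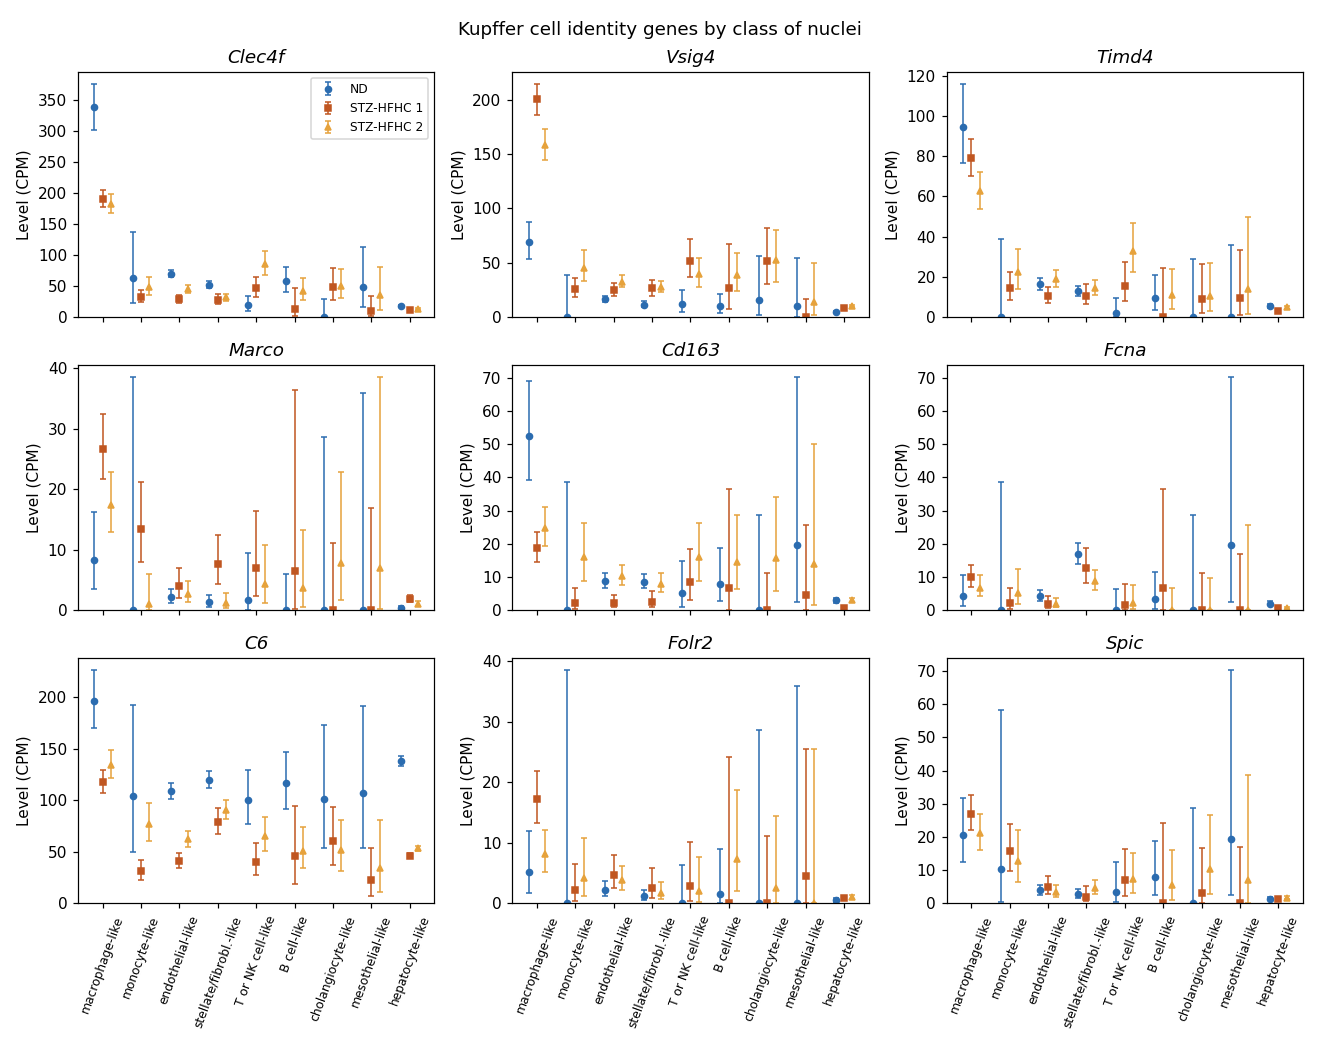
Level of each of the 9 genes (CPM, linear axes) in the 9 named classes of nuclei in ND, STZ-HFHC 1 and STZ-HFHC 2, with exact Poisson 95% intervals. Macrophage-like nuclei lie highest for 8 genes in each library, and for Fcna stellate or fibroblast-like nuclei lie above them, at 16.9, 12.6 and 8.72 CPM.

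Compared per length of gene, Clec4f had the highest level of the 9 in macrophage-like nuclei of each library, at 29.0, 16.3 and 15.6 CPM per kb of gene. In ND it was followed by Timd4 at 2.83 and C6 at 2.24 CPM per kb, and in both STZ-HFHC mice by Vsig4 at 4.33 and 3.43 CPM per kb. Vsig4 had stood at 1.49 CPM per kb in ND. The lowest level per length was that of Marco in ND, at 0.270 CPM per kb, of Cd163 in STZ-HFHC 1, at 0.718, and of Folr2 in STZ-HFHC 2, at 0.474. Whether intronic reads were counted is not given in the sources used here, so these values hold for the length of the whole gene. A UMI counts 1 captured RNA molecule, so levels per length do not rank the genes by number of molecules. Not divided by length, Vsig4 was above Clec4f in STZ-HFHC 1, at 200.4 against 190.2 CPM.

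The genes were then compared between ND and STZ-HFHC within macrophage-like nuclei. The proportion of Vsig4 to Clec4f separated the ND mouse from both STZ-HFHC mice. It was 0.204 Vsig4 UMIs per Clec4f UMI (0.155–0.266, 67 and 328 UMIs) in ND. In the STZ-HFHC mice it was 1.05 (0.951–1.17, 766 and 727 UMIs) and 0.869 (0.766–0.986, 466 and 536 UMIs). The intervals of both STZ-HFHC mice lay above that of ND. On the log2 scale the proportion was 2.22 higher in STZ-HFHC on average. Since both genes are counted in the same nuclei, this value does not depend on the scaling of the libraries. With ND represented by 1 mouse, the mouse-to-mouse spread of the ND value is unknown and no test was made.

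Outside the macrophage-like class, the proportion lay on the same side of ND. Per 100 Clec4f UMIs, endothelial-like nuclei held 23.3 Vsig4 UMIs (18.9–28.5) in ND and 86.2 (61.6–121) and 71.4 (57.1–88.9) in the STZ-HFHC mice. Stellate or fibroblast-like nuclei held 22.0 (17.1–28.1), 94.5 (63.5–141) and 87.3 (67.0–114), and hepatocyte-like nuclei 28.1 (22.5–34.9), 66.5 (55.5–79.4) and 79.8 (69.3–91.9). In each of these classes the intervals of both STZ-HFHC mice lay above that of ND, and within ND the 4 classes ran from 20.4 to 28.1. The size was not the same in all classes, since in STZ-HFHC 1 hepatocyte-like nuclei lay below macrophage-like nuclei, at 105 (95.1–117), without overlap of intervals. Cluster 8, left unnamed because 10 of 10 endothelial and 16 of 18 macrophage markers were raised, gave 0.198 (0.116–0.322), 1.16 (1.02–1.32) and 0.599 (0.531–0.675) Vsig4 UMIs per Clec4f UMI, the last below the macrophage-like nuclei of the same mouse. Its 40 ND nuclei had the highest Clec4f level of any cluster with at least 20 nuclei of a library, 649 CPM (529–789), and it held 716 and 812 nuclei of the STZ-HFHC mice. How the UMIs in nuclei of other classes arose, for example from free RNA or from doublets, was not tested.

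C6 and Fcna differed more between classes. Per 100 Clec4f UMIs, C6 was at 58.2, 61.9 and 73.9 in macrophage-like nuclei, with overlapping intervals in the 3 libraries, at 155, 144 and 137 in endothelial-like nuclei and at 822, 394 and 421 in hepatocyte-like nuclei. Fcna was at 1.22, 5.23 and 3.73 in macrophage-like nuclei and at 32.8, 45.5 and 27.8 in stellate or fibroblast-like nuclei. For these secreted proteins the proportion to Clec4f thus differed between classes of 1 library by more than counting error. For Timd4 the 4 classes had overlapping intervals in ND, at 28.0, 23.3, 24.5 and 31.0, but not in STZ-HFHC 1, at 41.5 (36.2–47.6) in macrophage-like and 26.6 (20.6–33.9) in hepatocyte-like nuclei. Cd163 also differed between these classes in STZ-HFHC 2, at 13.6 (10.5–17.4) and 23.9 (19.2–29.6).

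**Figure D2:**
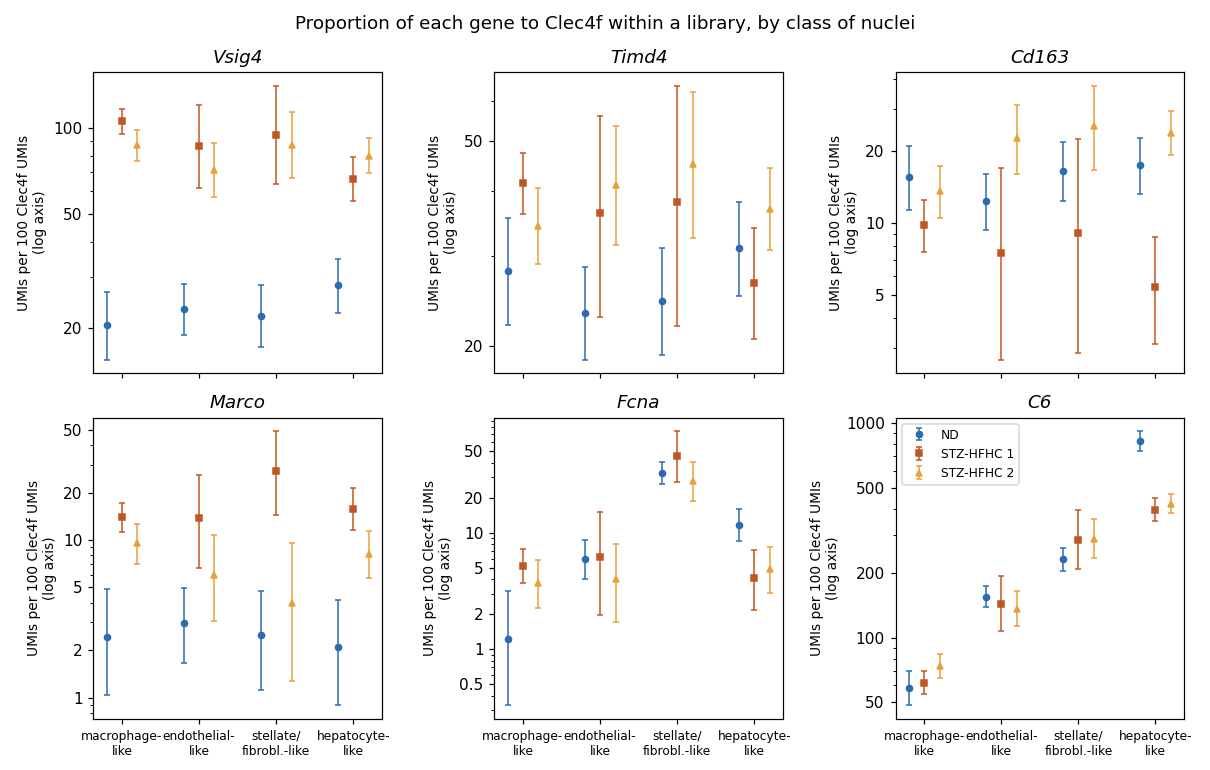
UMIs of 6 genes per 100 Clec4f UMIs (log axes, with a range of its own for each gene) in 4 classes of nuclei, by library, with 95% intervals from the binomial distribution. For Vsig4, ND lies at 20.4 to 28.1 in the 4 classes and the STZ-HFHC mice at 66.5 to 105.

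As shares of the UMIs of all 9 genes in macrophage-like nuclei, Clec4f made up 42.8%, 27.7% and 29.6%, and Vsig4 8.75%, 29.2% and 25.7%. Timd4 had similar shares of 12.01%, 11.5% and 10.2%. Cd163 went with 6.66%, 2.70% and 4.03% and C6 with 24.9%, 17.1% and 21.9%, while Marco (1.04%, 3.89% and 2.81%), Folr2 (0.653%, 2.51% and 1.32%) and Spic (2.61%, 3.92% and 3.42%) had larger shares in both STZ-HFHC mice. The proportion of Vsig4 to Cd163 was 1.31 (0.899–1.93), 10.8 (8.45–14.0) and 6.38 (4.98–8.29), and that of Timd4 to Clec4f was 0.280 (0.2201–0.354), 0.415 (0.362–0.476) and 0.343 (0.289–0.407). The first of these did not overlap between ND and the STZ-HFHC mice, and the second overlapped between ND and STZ-HFHC 2.

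Taken one by one and scaled to all UMIs of macrophage-like nuclei, 4 genes were lower in both STZ-HFHC mice than in ND and 5 were higher. Of the 10345 genes with at least 50 UMIs in these nuclei, 34.1% were lower in both mice and 51.8% higher in both, so these counts are near the background. Clec4f was lower by a log2 ratio of -0.86 ± 0.04 (SD of the 2 STZ-HFHC mice, here and below), with ratios to ND of 0.563 (0.493–0.643) and 0.539 (0.469–0.620). Cd163 was lower by -1.30 ± 0.30, with ratios of 0.353 (0.243–0.517) and 0.472 (0.326–0.689), and C6 by -0.65 ± 0.14, with ratios of 0.598 (0.504–0.712) and 0.684 (0.574–0.817). Timd4 was lower by -0.44 ± 0.24, where the ratio of STZ-HFHC 1, 0.833 (0.658–1.06), included 1 and that of STZ-HFHC 2, 0.660 (0.511–0.857), did not.

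Vsig4 was higher at a log2 ratio of 1.36 ± 0.24, with ratios of 2.90 (2.26–3.78) and 2.29 (1.77–3.01), but on the scale of the 18 macrophage markers it was at 51.0 UMIs per 1000 marker UMIs in ND against 42.5 and 51.1. Marco, at 1.31 ± 0.43 (ratios of 3.24 and 2.10), was likewise at 6.08 per 1000 marker UMIs in ND against 5.67 and 5.60. Folr2 was higher at 1.09 ± 0.75, Fcna at 0.85 ± 0.38 and Spic at 0.18 ± 0.25, and all 3 were lower in both mice on the marker scale. The interval of the ratio included 1 for Fcna and Spic in both mice and for Marco and Folr2 in STZ-HFHC 2. On the marker scale, which was added after the data had been seen, all 9 genes had log2 ratios below 0 in both STZ-HFHC mice, as did 86.5% of all genes tested, and that of Vsig4 in STZ-HFHC 2 was below 0 only with the 0.5 that was added to counts. Clec4f was then at 249.4 UMIs per 1000 marker UMIs in ND against 40.4 and 58.8, Timd4 at 69.96 against 16.8 and 20.2, Cd163 at 38.8 against 3.94 and 8.01 and C6 at 145 against 25.0 and 43.4. The direction of Clec4f, Cd163, C6 and Timd4 was thus the same on both scales, and that of the other 5 genes was not. The direction of Timd4 turned in nuclei with at least 2 macrophage markers (log2 ratio 0.26) and with no limits on nuclei (0.42). The first of these sets held 2816, 6458 and 6490 nuclei, most of them not macrophage-like.

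**Figure D3:**
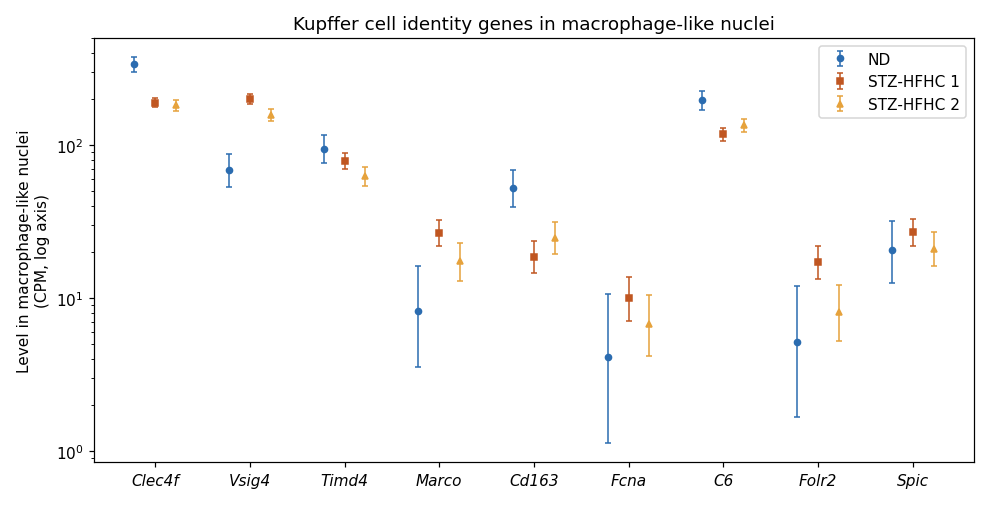
Level of the 9 genes in macrophage-like nuclei (CPM, log axis) in ND (245 nuclei), STZ-HFHC 1 (1386) and STZ-HFHC 2 (941), with exact Poisson 95% intervals. Clec4f, Cd163 and C6 lie lower in both STZ-HFHC mice without overlap of intervals, and Vsig4 lies higher at 200.4 and 158 against 69.0 CPM.

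Since ND was 1 mouse, a rule of size stood in place of a test. A gene with 50 UMIs or more passed it when each STZ-HFHC mouse had a log2 ratio to ND of 2 or above, or each had one of -2 or below. None of the 9 genes passed it in either direction, against 4.11% of the 10345 genes that passed as higher and 0.677% that passed as lower. The median log2 ratio of the 9 was 0.18, that of all genes tested 0.17. In edgeR's quasi-likelihood test, which has to assume that ND mice vary like the STZ-HFHC mice, 0 of the 9 genes and 150 of the 10345 (1.45%) had an adjusted p (Benjamini-Hochberg) under 0.05. Unadjusted, 4 of the 9 were under 0.05, as were 26.0% of all genes tested. The edgeR adjusted p was 0.0751 for Clec4f, 0.0762 for Cd163, 0.0837 for Vsig4 and 0.117 for C6, and it was 0.222 or more for the others. In DESeq2 0 of the 9 had an adjusted p under 0.05 against 7.89% of the 7938 genes given one, with 3 of the 9 and 15.5% of all 10345 genes under 0.05 unadjusted, and Fcna and Folr2 were given no adjusted p.

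The genes were also summed over all nuclei of a library, which needs no naming of clusters. In such sums more cells of a type and more RNA per cell cannot be told apart. Clec4f was at 41.9, 41.3 and 40.9 CPM, with ratios to ND of 0.986 (0.924–1.05) and 0.976 (0.917–1.04), although macrophage-like nuclei made up 2.88%, 15.5% and 8.62% of the libraries. Vsig4 was at 9.93, 39.7 and 30.5 CPM, with ratios of 4.003 (3.60–4.46) and 3.07 (2.76–3.42). Its proportion to Clec4f was 0.237 (0.213–0.263), 0.961 (0.900–1.03) and 0.745 (0.699–0.794), again with both STZ-HFHC intervals above that of ND.

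Of the other receptors, Timd4 was at 10.8, 15.5 and 15.8 CPM over all nuclei and Marco at 0.983, 6.70 and 3.09 CPM. Folr2 was at 0.960, 3.56 and 2.28 CPM and Spic at 2.74, 5.79 and 4.71 CPM. These 4 genes and Vsig4 were higher in both STZ-HFHC mice, as were 53.7% of the 16829 genes with at least 50 UMIs. Cd163 split the mice, at 6.44 CPM in ND against 3.92 and 7.80. C6 was at 143 CPM against 55.6 and 67.2, and Fcna at 4.96 against 2.50 and 2.17, both lower in both mice like Clec4f, as were 32.1% of the genes tested. None passed the rule of size in both mice over all nuclei, where 3.67% of genes passed as higher and 0.582% as lower.

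**Figure D4:**
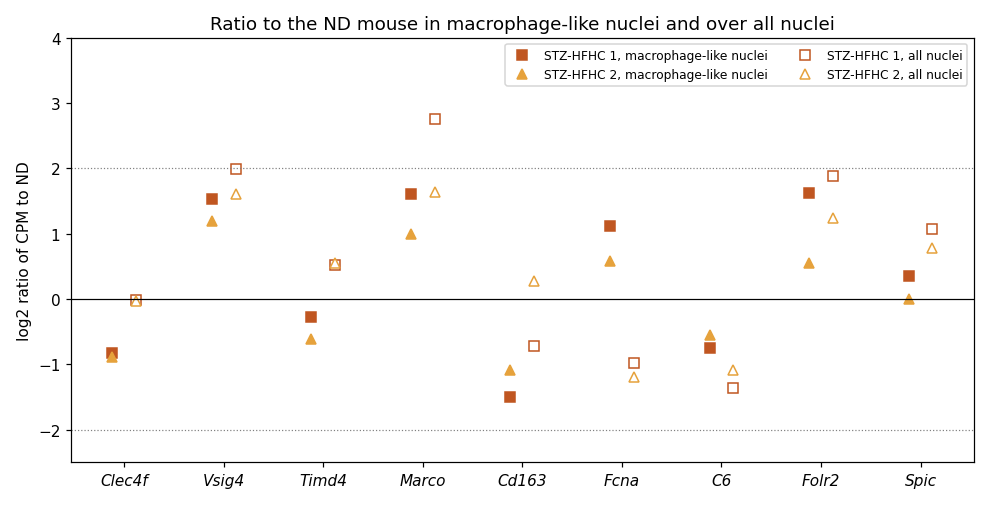
Log2 ratio of CPM to the ND mouse for each gene in macrophage-like nuclei (filled) and over all nuclei (open), 1 symbol per STZ-HFHC mouse. The dotted lines mark the rule of size at 2 and -2, which no gene passed in both mice.

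Macrophage-like nuclei were clustered again, without the 9 genes, into 6 subclusters. All but 9 ND nuclei fell in subcluster 5, which held 236 nuclei of ND and none of the STZ-HFHC mice, so that libraries and subclusters largely coincide. Among its leading genes against the other subclusters were Serpina1e, Bhmt and Elovl3, which hepatocytes express, and none of its first 10 was on the list of macrophage markers. The 9 genes were left out of this ranking. Bhmt was also among the leading genes of endothelial-like cluster 9, of whose 1189 nuclei 1178 were from ND. Among the STZ-HFHC nuclei, subcluster 2, led by Rtn1 and Gfra2 (466 and 177 nuclei), had the highest levels of Clec4f, Vsig4, Timd4, Marco, Fcna and C6 in both mice. There Clec4f was at 394 (357–433) and 436 CPM (375–504), above the 326 CPM (290–364) of ND subcluster 5 although the interval of 1 mouse overlapped it. Timd4 was at 179 (155–206) and 214 (172–263) CPM against 92.8 (74.6–114), and Vsig4 at 408 (371–448) and 364 (309–427) against 60.5 (45.9–78.2). Cd163 was not higher in subcluster 2, at 41.6 (30.3–55.6) and 19.1 (8.23–37.5) CPM against 52.2 (38.7–68.8). These levels are on the scale of all UMIs. Per UMI of the macrophage markers, Clec4f and Timd4 were lower in subcluster 2 than in subcluster 5, and Vsig4 was not. Clec4f had 426 and 183 UMIs beside 7991 and 2777 macrophage marker UMIs in subcluster 2, against 312 beside 1244 in subcluster 5. The UMIs of Timd4 were 194 and 90 against 89, and those of Vsig4 442 and 153 against 58.

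Subcluster 3, with 335 and 127 nuclei of the STZ-HFHC mice, was led by Emp1, Atp6v0d2 and Gpnmb, and the summed level of 12 genes of lipid-associated macrophages was 8474 and 6511 CPM there against 1793 and 1503 CPM in subcluster 2. Clec4f was at 120 (98.0–145) and 110.1 (76.7–153) CPM, Timd4 at 50.2 (36.5–67.4) and 40.9 (21.8–69.9) and C6 at 50.2 (36.5–67.4) and 101 (68.9–142). All 3 were lower than in subcluster 2 in both mice, without overlap of intervals. Vsig4, at 167 (141–196) and 220.2 (172–278) CPM, was lower too, but by less. Its proportion to Clec4f was therefore highest in subcluster 3, at 1.39 (1.07–1.80) and 2.00 (1.31–3.09), against 1.04 and 0.836 in subcluster 2. Among all subclusters of STZ-HFHC mice the lowest proportion was 0.735 (0.577–0.934), in subcluster 1 of STZ-HFHC 2, and ND subcluster 5 was at 0.186 (0.138–0.247).

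Subcluster 1 (395 and 386 nuclei), led by Ebf1 and Shank3, lay between, with Clec4f at 219 and 280.2 CPM and Vsig4 at 205 and 206 CPM. Subcluster 4 (171 and 241 nuclei) had the lowest levels of Clec4f, Vsig4 and Timd4 in both mice, with Clec4f at 61.4 and 94.4 CPM, Vsig4 at 45.5 and 73.6 CPM and Timd4 at 14.4 and 20.8 CPM. C6, at 55.4 and 91.9 CPM, was near its level in subcluster 3 there. Subcluster 4 also had the highest median depth, 6269 UMIs, and its summed hepatocyte markers stood at 13826 and 15534 CPM, against 6349 and 8699 CPM in subcluster 2 and 17954 CPM in subcluster 5. Macrophage markers summed to 1549 and 1377 CPM in subcluster 4, 7382 and 6613 CPM in subcluster 2 and 1298 CPM in subcluster 5. The part of hepatocyte RNA in these levels was not tested, and since subclusters were formed from the same nuclei no test between them was made. Subcluster 6, of 29 dividing nuclei, had fewer than 20 in each library.

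**Figure D5:**
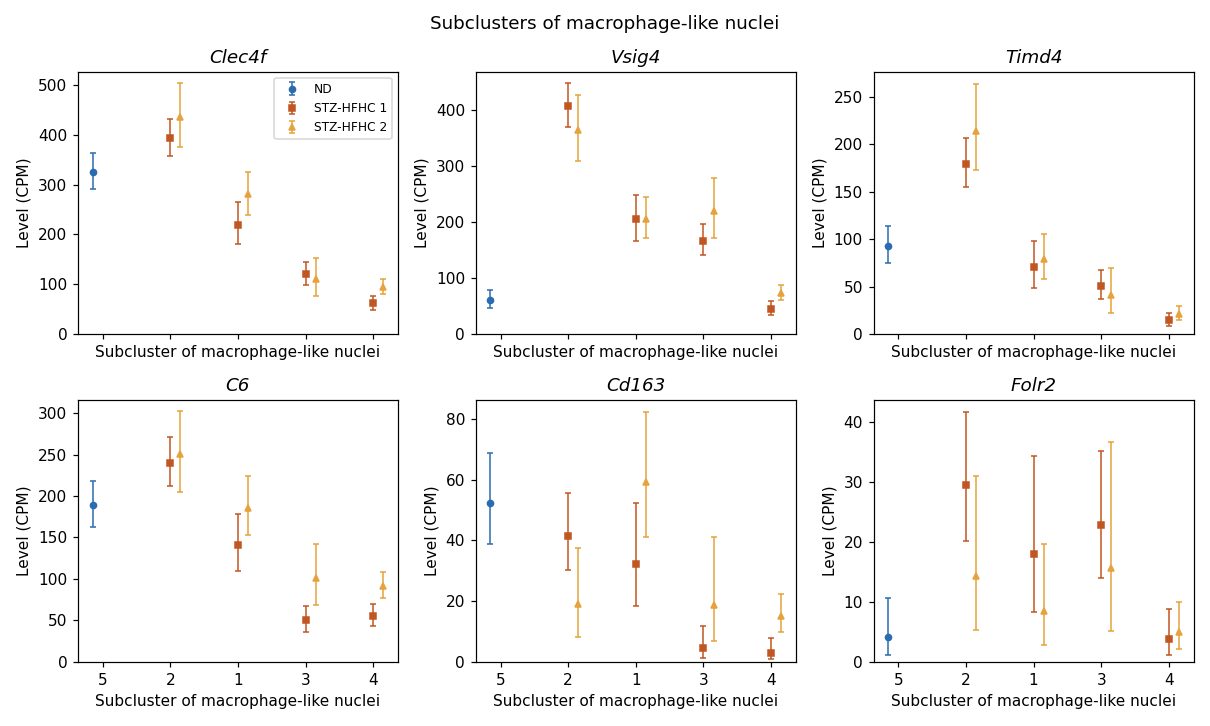
Level (CPM) of 6 genes in subclusters of macrophage-like nuclei with at least 20 nuclei of a library, with exact Poisson 95% intervals. Subcluster 5 is of ND alone, and in the STZ-HFHC mice Clec4f runs from 394 and 436 CPM in subcluster 2 to 61.4 and 94.4 in subcluster 4.

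Nucleus by nucleus, each of the 9 genes was detected in a minority of nuclei at equal depth. With every nucleus thinned to 1000 UMIs and shallower nuclei left out (57, 156 and 82 of the macrophage-like), Clec4f was found in 36.7% (29.8–44.0, exact binomial interval) of 188 ND nuclei, 19.4% (17.3–21.8) of 1230 and 20.6% (17.9–23.5) of 859. Unthinned, the shares were 58.4%, 29.7% and 35.5%. In hepatocyte-like nuclei, which should lack the gene, they were 2.00%, 1.499% and 1.45% thinned, at unthinned median depths of 4074, 7379.5 and 6375 UMIs against 2213, 1814 and 1847 in macrophage-like nuclei. Vsig4 was found in 11.7% (7.48–17.2), 17.97% (15.9–20.2) and 16.8% (14.3–19.4) thinned, 21.2%, 27.6% and 29.9% unthinned, and in 0.571%, 1.12% and 1.24% of hepatocyte-like nuclei. The share with Clec4f was thus higher in ND than in both STZ-HFHC mice, without overlap of intervals, and for Vsig4 the intervals overlapped.

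Timd4 was found in 11.7%, 8.05% and 7.10% of thinned macrophage-like nuclei (26.5%, 12.9% and 13.1% unthinned) and Cd163 in 7.45%, 2.85% and 3.49% (16.7%, 3.75% and 6.80% unthinned). In hepatocyte-like nuclei these shares were at most 0.747% and 0.374%. C6 was found in 20.2%, 12.2% and 16.3% (42.0%, 20.6% and 30.2% unthinned), but also in 12.8%, 4.24% and 5.30% of hepatocyte-like nuclei. Marco was found in 0 of 188 ND nuclei, which allows a share of up to 1.60%, and in 2.68% and 1.63% of the STZ-HFHC nuclei (0.816%, 4.47% and 3.29% unthinned). Fcna was also at 0 of 188, with the same limit, against 0.894% and 0.582% (1.63%, 2.45% and 2.02% unthinned), so that for both genes a difference was at the limit of detection at this depth. Folr2 (1.06%, 2.28% and 0.815%, or 2.04%, 4.04% and 2.44% unthinned) and Spic (2.66%, 2.68% and 2.68%, or 6.94%, 5.63% and 5.53% unthinned) had overlapping intervals in the 3 libraries.

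UMIs of at least 2 of the 9 genes were found in 23.9% (18.03–30.7) of ND nuclei against 17.8% (15.7–20.1) and 18.4% (15.9–21.1), a difference within the intervals. In hepatocyte-like nuclei this share was 0.681%, 0.287% and 0.331%, and in endothelial-like nuclei 2.44%, 0.865% and 2.31%. It was 33.33% and 30.8% in subcluster 2, 5.08% and 10.7% in subcluster 3 and 22.95% in subcluster 5. Some pairs of the genes also met in the same nuclei. Of thinned nuclei with Timd4, 16 of 22 (72.7%), 44 of 99 (44.4%) and 20 of 61 (32.8%) had Clec4f as well, above the share of all macrophage-like nuclei in each library. Of nuclei with Vsig4, 59.1%, 38.0% and 37.5% had Clec4f. Of nuclei with C6, 36.8%, 40.0% and 23.6% had it, which in ND was close to the 36.7% of all nuclei. Of nuclei with Spic, 2 of 5, 5 of 33 and 4 of 23 had Clec4f. At this depth that was below the 19.4% and 20.6% of all nuclei in the STZ-HFHC mice, but from few nuclei. Unthinned it was above instead, at 34.6% against 29.7% in STZ-HFHC 1 and 48.1% against 35.5% in STZ-HFHC 2. Of nuclei with Timd4, 13.6%, 35.4% and 19.7% had Vsig4, in ND close to the 11.7% of all nuclei.

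Other genes of the Kupffer cell programme were all higher in STZ-HFHC on the scale of all UMIs. All 17 listed genes were higher in both mice, against 51.8% of all genes tested. Their median log2 ratio was 1.40 against 0.18 for the 9, but 7 of the 17 are among the markers that named the class. Only Hmox1, which encodes a haem-degrading enzyme, passed the rule of size, at 11.3 CPM in ND against 97.8 and 58.5. Of the 3 with the most UMIs, Mertk, a receptor for dying cells, was at 373 CPM against 1126 and 868, Cd5l, a secreted scavenger protein, at 99.95 against 844 and 323, and Slc40a1, the iron exporter ferroportin, at 266 against 510.3 and 417. Clec4f, Timd4, Cd163 and C6 thus lay on the other side of ND from these genes on this scale. Per UMI of the 18 macrophage markers (1315, 18003 and 9114 UMIs), the picture differed. Slc40a1 was then lower in both mice (258, 1951 and 1226 UMIs). Cd5l was higher in both (97, 3228 and 949), and Mertk split the mice (362, 4305 and 2554). These 3 genes are themselves among the markers, and the rest of the list was not compared on that scale.

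Of 14 regulators of transcription, 11 were higher in both mice and 2 lower, against 51.8% and 34.1% of all genes tested. Tfec alone passed the rule of size, at 30.9 CPM against 196 and 135. Zeb2, a regulator that maintains Kupffer cell identity, was at 668 CPM against 2605 and 1675 and Maf at 153 against 272 and 258. Of 12 genes of lipid-associated macrophages, 10 passed as higher: Trem2, Cd9, Gpnmb, Lgals3, Cd36, Mmp12, Atp6v0d2, Fabp5, Itgax and Lpl. The levels of Gpnmb, a membrane glycoprotein, were 1.03 CPM against 669 and 343, those of Cd36, a fatty acid receptor, 14.4 against 505 and 294, and those of Mmp12, a macrophage elastase, 2.06 against 483 and 165. On the same scale 0 of the 9 Kupffer cell identity genes passed, where 4.11% of all genes tested passed as higher and 0.677% as lower. The study had reported Mmp12, Atp6v0d2, Gpnmb, Lgals3 and Cd36 as raised in a macrophage cluster of these data. Gpnmb, Atp6v0d2, Mmp12 and Lgals3 are also among the leading genes of cluster 4, which held most STZ-HFHC macrophage-like nuclei. The counts of the 2 lists are therefore not an independent comparison.

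Of 8 monocyte genes, 5 reached 50 UMIs, and Cx3cr1 (2.06 CPM against 14.6 and 11.2) and Itgam (3.09 against 19.9 and 15.3) passed as higher, while Fn1, which hepatocytes also express, was at 793 against 244 and 209. Plac8 was at 7.21 CPM against 30.6 and 18.7. Of 9 genes of the Kupffer cell niche, 3 reached 50 UMIs, and Jag1, a Notch ligand, passed as higher from 1 UMI in ND, at 1.03 CPM against 6.80 and 8.50. Tgfb1 was at 22.7 CPM against 71.1 and 40.5 and Bmp2 at 8.24 against 22.8 and 11.2. Of 5 terminal complement genes other than C6, 4 reached 50 UMIs, and all 4 were lower in both mice, as were 34.1% of all genes tested. C8b passed as lower, at 44.3 CPM against 3.40 and 10.2, C8a was at 229 against 75.9 and 157, C9 at 164 against 70.1 and 121 and C8g at 41.2 against 8.63 and 11.2. These are hepatocyte genes, and the 10 hepatocyte markers, of which 8 were lower in both mice and 0 passed the rule of size, had a median log2 ratio of -1.05. Of these markers, Cps1 was at 7155 CPM against 4766 and 7792, Alb at 2720 against 1411 and 1638 and Pck1 at 2356 against 839 and 1159. C6, at -0.65, moved in the same direction as the terminal complement genes and the median of the hepatocyte markers. The part of hepatocyte RNA in the value of C6 was not tested.

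Finally, each gene was set beside all others by the Pearson correlation of log2(CPM + 1) over 49 groups of at least 20 nuclei, each being a cluster in a library. These groups share libraries and depth, so the values are descriptions. Among 16820 other genes, Clec4f was most like Gm20275 (r = 0.79), Btbd11 and Slc40a1 (0.77), and Vsig4 was most like Etv5 (0.84), Vcam1 and Wdfy3. Timd4 was most like Tmem26 (0.81), Ank2 and Dysf. Marco was most like Arhgap19 (0.80), Siglec1, a sialic acid-binding lectin of macrophages, and Cd5l. Cd163 was most like Gm11099 (0.72), Gm20275 and Bend4, and Spic was most like Insyn2b (0.82), Madd and Pnpla7. Folr2 was most like Gm47448 (0.76), Spef1 and Ms4a8a. The secreted proteins had other neighbours, Fcna being most like Phf24 (0.77), Frem1 and Nr1h5 and C6 most like Lrp1 (0.78), Cyp2c29 and Lamp2. Between pairs of the 9 genes, r ran from -0.13 for Marco and C6 to 0.73 for Clec4f and Timd4.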

How the data were processed

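Nuclei were prepared from about 100 mg of frozen liver, libraries were made with the 10x 3′ v3.1 kit, and the authors deposited a matrix of raw UMI counts of each library, which Cell Ranger 7.0.1 had made on mm10 per the labels and which was not normalized. Strand and the use of intronic reads are not given in the sources used here. Nuclei were kept at 200 to 5000 genes and up to 5% of mitochondrial UMIs, with 42715797, 44350401 and 55632923 UMIs left (ND, STZ-HFHC 1, STZ-HFHC 2). Barcodes numbered 30989 in the files and 28336 after these limits. The study states the first of these numbers for its nuclei after filtering.

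After scaling of each nucleus to 10000 UMIs, 2000 variable genes without the 9 identity genes, 30 components, 15 neighbours and Leiden resolution 1 were used in Scanpy 1.11.5 (Python 3.11.15). A marker was raised at 2-fold over its median in other clusters with UMIs in at least 5% of nuclei. Each cluster was named by the list of which most was raised (at least 3 markers and 33.3% of the list) and stayed unnamed when 50% of another list was raised, when at least 5 of its top 10 genes were mitochondrial or when too few markers were raised. Remaining clusters with 3 hepatocyte markers at 1.2 times their level in other named or mixed clusters became hepatocyte-like. Names were rebuilt here and may differ from those of the study. Scrublet marked 1, 0 and 0 nuclei and did not work, so doublets were kept, and the top 8% of scores were removed as an alternative.

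Levels were sums of UMIs in CPM with exact Poisson intervals, shares had exact binomial (Clopper-Pearson) intervals and proportions conditional binomial intervals, all at 95%. They cover counting error only, not differences between mice. Where a count was 0, 3 counts were taken as the limit. Log2 ratios had 0.5 added to each count. The SD over the STZ-HFHC mice leaves out the counting error of ND, which both ratios share. Replicates are separate mice. The p-values were from edgeR 4.0.16 and DESeq2 1.42.0 (R 4.3.3) on summed counts with 1 residual degree of freedom. A simulation assumed the same spread for all genes and took gene proportions pooled over the libraries, so its rates hold for that setting only. In it the rule of size passed 15 of 9913 unchanged genes. On simulated data for this comparison, with 10074 genes in the step, the rule of size found 1 of 46 genes changed 2-fold, 16 of 40 changed 4-fold and 37 of 38 changed 8-fold, and edgeR found 8 of 46 changed 2-fold and 32 of 40 changed 4-fold.

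The 9 genes and all lists were chosen with earlier results of these data known. Named were the 9 genes, for each the 3 genes with the most similar profile among those with at least 50 UMIs, and of each list the genes past the rule of size plus the 3 with the most UMIs in macrophage-like nuclei; leading genes of clusters and subclusters were chosen after their values were seen. For the list of lipid-associated macrophages, values of 3 genes were given. For 1 gene of the list of regulators that the rule names, the value is not reported here. C5 was not found under that name. Of the gene identifiers, 32158 (99.6%) were in GENCODE M21. Promoters of all 9 genes were in the RefSeq table, and protein sequences were not used here. Alternatives were other clusterings, scalings, thresholds and depths, the removal of doublets and of each STZ-HFHC mouse, and count tests.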

Additional observations from a re-analysis of the deposited data

Results flagged for a closer look

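Fcna was the one gene of the 9 for which both STZ-HFHC mice lay on opposite sides of ND in different classes of nuclei with at least 50 UMIs each. Its mean log2 ratio to ND was 0.85 ± 0.38 in macrophage-like nuclei, with 4.12 CPM in ND against 9.94 and 6.80. In hepatocyte-like nuclei it was -1.82 ± 0.23, with 1.97 CPM against 0.483 and 0.617, and in stellate or fibroblast-like nuclei -0.67 ± 0.38, with 16.9 CPM against 12.6 and 8.72. The difference between classes was not tested. The ND value in macrophage-like nuclei rested on 4 UMIs, the antisense gene Fcnaos covers Fcna, and the stellate or fibroblast-like nuclei of ND and STZ-HFHC lay mostly in different clusters.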

How the results depend on the processing

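No paired analysis was possible because ND has 1 library and shares no replicate numbers with the STZ-HFHC libraries in the labels. Clec4f, Cd163 and C6 were lower than in ND under 12 of 12 alternatives, at mean log2 ratios of -2.36 to -0.30, -2.79 to -0.55 and -2.14 to -0.28. The proportion of Vsig4 to Clec4f was higher under 12 of 12. Its log2 value of 2.22 became 1.93 in nuclei with at least 2 macrophage markers, 1.70 at resolution 0.5 and 1.75 with nuclei thinned before clustering. The set with UMIs of at least 2 macrophage markers used no clustering and held 2816, 6458 and 6490 nuclei. Most of these lay outside the macrophage-like class.

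The class itself was less stable: ND macrophage-like nuclei, 245 here, numbered 81 at resolution 0.5, 37 with thinning before clustering and 15 at resolution 2, too few for a value. The cause of the changes below was not tested. Genes lower in both mice went from 4 to 9 on the marker scale and 7 with thinning before clustering, and genes higher in both from 5 to 0 on the marker scale, 3 with unnamed clusters added, 3 at resolution 0.5 and 1 with thinning. Directions turned on the marker scale for Vsig4 (-0.14), Marco (-0.19), Fcna (-0.64), Folr2 (-0.41) and Spic (-1.31), and with thinning before clustering for Vsig4 (-0.34), Fcna (-0.15), Folr2 (-0.19) and Spic (-1.31). They turned for Timd4 in nuclei with at least 2 macrophage markers (0.26) and with no limits on nuclei (0.42). Fcna turned with unnamed clusters added (-0.19) and with at least 2 markers (-1.10), and Spic with unnamed clusters added (-0.21) and at resolution 0.5 (-0.26). On median-of-ratios scaling the median of all genes was 0.06 in place of 0.17, and 4 of the 9 were higher in both mice.

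Past the rule of size were 425 genes as higher and 70 as lower. These were 766 and 150 at 10 UMIs, 1486 and 536 at a log2 ratio of 1, 192 and 24 with thinning and 759 and 168 with no limits on nuclei, and 251 were higher at resolution 0.5. In edgeR 39 were higher and 111 lower, and in DESeq2 330 were higher and 296 lower. Leaving out a STZ-HFHC mouse gave 234 (without STZ-HFHC 1) to 635 (without STZ-HFHC 2) higher and 80 to 187 lower. Of the 9 genes, 1 passed as higher and 1 as lower at a log2 ratio of 1, and 1 as higher at resolution 0.5. With thinning before clustering 5 of the 9 in place of 8 were highest in macrophage-like nuclei. The share of nuclei with at least 2 of the genes, lower in STZ-HFHC by 5.84 points (-5.84), was at -20.5 without thinning, -46.4 with thinning before clustering and 1.87 with no limits on nuclei.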
